A study of Homo sapiens with 2 samples.

Results

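The mitochondrial chaperones and quality-control proteases are described here through 10 genes, HSPD1, HSPE1, HSPA9, LONP1, CLPP, CLPX, YME1L1, AFG3L2, SPG7 and HTRA2. They were taken by gene name from the expression tables of a wild-type (WT) and a PERK-deficient (PERK-KO) sample of HEK293, a cell line from human embryonic kidney. Each name had 1 row in both tables, among 25277 rows with 23614 distinct names. The PERK-KO line had been made with CRISPR/Cas9 and seeding of single cells, so it may be 1 clone, and both lines were kept for 12 h in OXPHOS medium, which holds galactose and pyruvate in place of glucose so that ATP must come from oxidative phosphorylation. Expression was given as FPKM, a number of fragments scaled by transcript length and by sequencing depth, with lower and upper confidence limits. There was 1 sample per genotype, so no difference has a replicate error or a test, and differences between genotypes cannot be told apart from differences between the cultures, the libraries or the clone. As the RNA is from bulk cells, fewer cells that express a gene and less RNA per cell cannot be told apart. The limits carry the measurement error of 1 library, and an interval of a PERK-KO to WT ratio given below combines the limits of both samples.

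Most mitochondrial proteins are made in the cytosol and enter the organelle unfolded. In the matrix, the HSP70 chaperone HSPA9 (mortalin) pulls them in and helps them fold, and the chaperonin HSPD1 (HSP60), a barrel closed by its lid HSPE1 (HSP10), folds many of them. Proteins that fail are degraded by ATP-driven proteases, which are LONP1 and the CLPX-CLPP complex in the matrix, the m-AAA protease of AFG3L2 and SPG7 (paraplegin) on the matrix face of the inner membrane, and the i-AAA protease YME1L1 on its outer face. HTRA2 is a serine protease of the intermembrane space. Several of these genes are used as markers of the mitochondrial unfolded protein response, a programme that in mammals has been linked to ATF4, CHOP and ATF5, factors that also act downstream of eIF2α kinases such as PERK.

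The samples matched their labels in part. EIF2AK3, the gene of PERK, had an FPKM of 5.61 (limits 5.11 to 6.12) in WT and 3.89 (3.44 to 4.34) in PERK-KO cells, and FPKM does not show whether a transcript can make protein. Of 5 genes known to be transcribed in HEK293 cells, KRT8, KRT18 and VIM ranged from 202 to 640 FPKM, PAX2 was below 1 in both samples, and NEFM had 0.662 in WT and 5.21 in PERK-KO cells. Markers of liver (ALB), of the nephron (UMOD and AQP2) and of brown fat (UCP1) were listed at 0 in both samples. Those of blood (PTPRC) and of fibroblasts (DCN) were below 0.2. The other fibroblast marker, COL1A1, was however at 4.97 in WT and 4.62 in PERK-KO cells. The other fat cell marker, ADIPOQ, was at 1.68 and 1.42. By the limits of genes with a whole number of fragments, the depth behind PERK-KO cells was 87.6% of that behind WT cells.

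The start regions of 4 genes are shown first, because HSPD1 and HSPE1 are neighbours read in opposite directions that make the barrel and the lid of 1 complex, and because LONP1 and HTRA2 hold the GABP motif on which the study centred. The sequences are the RefSeq bases before the annotated transcription start (GRCh38.p14, written 5′ to 3′ on the strand of the gene), and capitals mark matches to the heat shock factor core TTCNNGAA in HSPD1 and to the GABP motif CCGGAAG in LONP1 and HTRA2. HSPE1 has no capitals, as its window held neither motif. The HSPD1 matches also lie upstream of the HSPE1 start, but outside the HSPE1 window. The lack of a match in HSPE1 thus depends on the length searched. HSPD1, LONP1 and HTRA2 each have another annotated start, and the window before that start held neither motif. For these genes only the window with a match is shown. HSPD1 lies at chr2:197499841-197500090 on the minus strand, HSPE1 at chr2:197500129-197500378 on the plus strand, LONP1 at chr19:5720147-5720396 on the minus strand and HTRA2 at chr2:74529683-74529932 on the plus strand.
HSPD1: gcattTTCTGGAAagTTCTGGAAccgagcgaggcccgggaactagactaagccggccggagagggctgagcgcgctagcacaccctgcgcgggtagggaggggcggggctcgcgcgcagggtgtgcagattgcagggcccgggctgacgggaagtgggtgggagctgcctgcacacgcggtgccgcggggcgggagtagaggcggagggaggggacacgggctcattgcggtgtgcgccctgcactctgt
HSPE1: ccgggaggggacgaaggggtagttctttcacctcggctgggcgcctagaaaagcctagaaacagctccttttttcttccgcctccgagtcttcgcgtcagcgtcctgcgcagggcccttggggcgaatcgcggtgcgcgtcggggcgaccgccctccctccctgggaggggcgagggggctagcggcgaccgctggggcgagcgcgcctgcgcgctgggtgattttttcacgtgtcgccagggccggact
LONP1: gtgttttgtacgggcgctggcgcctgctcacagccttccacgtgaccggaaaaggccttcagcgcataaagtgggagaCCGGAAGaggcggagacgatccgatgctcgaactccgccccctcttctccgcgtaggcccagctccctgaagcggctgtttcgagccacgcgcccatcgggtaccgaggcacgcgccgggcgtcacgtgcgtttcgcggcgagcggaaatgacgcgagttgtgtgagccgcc
HTRA2: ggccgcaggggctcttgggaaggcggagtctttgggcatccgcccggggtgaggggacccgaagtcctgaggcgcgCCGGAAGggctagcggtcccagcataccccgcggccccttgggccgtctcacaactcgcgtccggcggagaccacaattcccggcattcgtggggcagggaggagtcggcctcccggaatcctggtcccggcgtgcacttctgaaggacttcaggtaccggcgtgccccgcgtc

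RefSeq start regions were found for 8 of the 10 genes, in 12 windows, as HSPD1, HTRA2, LONP1 and SPG7 have a pair of annotated starts each. CLPP and YME1L1 had no entry. In the 250 bases before the start, on either strand, CCGGAAG was present in 2 of the 12 windows, LONP1 at position -172 and HTRA2 at position -174 from the start, and in 8.52% of all 35116 windows. TTCNNGAA was found in a window of HSPD1 alone, at positions -245 and -235 before the start shown, and in 6.62% of all windows. GCGCATGC, the core of the site bound by NRF1, a regulator of mitochondrial genes, lay before the other start of LONP1 and in 2.63% of all windows. TGATGCAA and TGATGAAA, variants of the site bound by CHOP with ATF4, and CCAAT followed after 9 bases by CCACG, the ER stress element, were in none of the 12 windows, and in 0.772%, 0.931% and 0.0740% of all windows. GGGCGG, bound by SP1, was present in 10 of the 12 windows and in 42.6% of all windows. The window of HSPE1 overlaps that of the other HSPD1 start, and the SPG7 windows overlap each other. Some GGGCGG sites were thus counted in more than 1 window. Such a match describes the letters of the window and not the binding of a factor.

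Levels of the 10 genes spread 37.1-fold in WT and 21.7-fold in PERK-KO cells, on the FPKM scale, which is per length. All 10 passed the filter of at least 1 FPKM in at least one sample, as did 14594 rows of the whole table, which are the genes tested below. HSPD1 was highest in both samples and CLPX lowest. The order in WT cells was HSPD1, HSPE1, CLPP, HSPA9, YME1L1, LONP1, AFG3L2, SPG7, HTRA2 and CLPX, and the limits of neighbours in this order overlapped for LONP1 with AFG3L2 and for SPG7 with HTRA2. In PERK-KO cells 7 genes kept their place, and HSPE1 went from the second to the fourth place behind CLPP and HSPA9, with limits that overlapped those of HSPA9. Among all genes tested, HSPD1 lay at percentile 98.2 of FPKM in both samples and CLPX at percentile 51.5 in WT and 60.0 in PERK-KO cells.

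**Figure D1:**
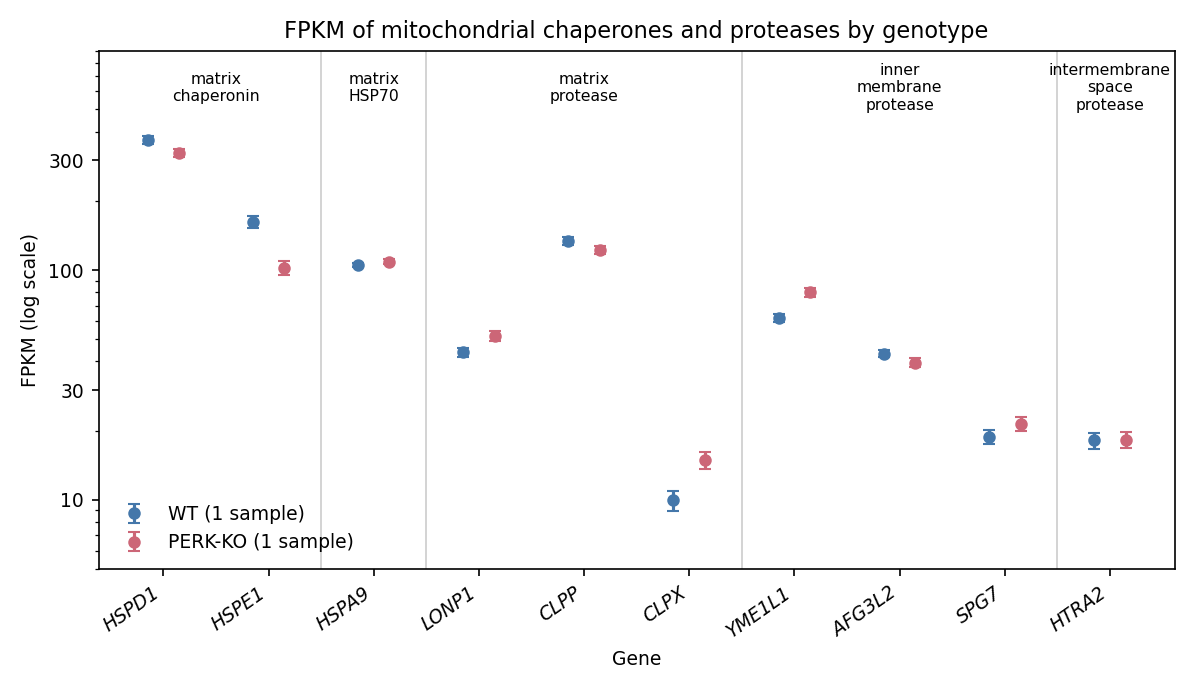
FPKM (log axis) of the 10 genes in the WT sample (blue) and the PERK-KO sample (red), grouped by role, with bars for the deposited confidence limits and no replicates. The bars of HSPE1 (161.7 and 102.5) and CLPX (9.93 and 14.9) are the farthest apart relative to their level, and those of HSPA9, SPG7 and HTRA2 overlap.

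Relative to WT cells, PERK-KO cells had less mRNA of HSPE1, HSPD1, CLPP and AFG3L2, and more mRNA of CLPX, YME1L1 and LONP1. The limits of HSPA9, SPG7 and HTRA2 overlapped those of WT cells. HSPE1, the lid, was the only one of the 10 genes more than 1.5-fold lower, and CLPX, the unfoldase of the CLPX-CLPP complex, the only one more than 1.5-fold higher, at a ratio of 1.502. CLPX came to 1.46 and 1.47 when PERK-KO values were rescaled by the median or the 75th percentile of all genes, and so below the limit. Of all genes tested, 7.54% were more than 1.5-fold lower and 10.1% more than 1.5-fold higher, so 1 of 10 in each direction was near the background. The limits of the samples were apart with a higher value in PERK-KO cells for 3 of the 10 genes (CLPX, YME1L1 and LONP1) and with a lower value for 4 (HSPE1, HSPD1, CLPP and AFG3L2), against 26.1% and 18.7% of all genes tested. The median log2 fold change (PERK-KO over WT) was 0.03 for the 10 genes and 0.04 for all genes tested. In none of the 10 was the whole interval of the ratio beyond 1.5-fold in either direction.

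**Figure D2:**
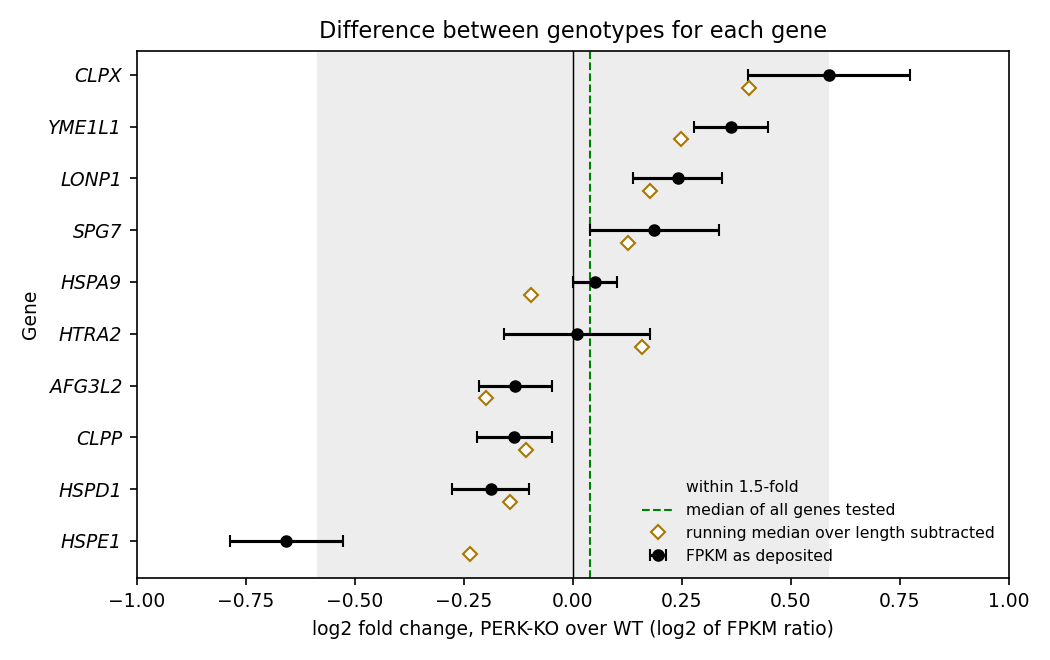
Log2 fold change of each gene (PERK-KO over WT, 1 sample each) with its interval from the deposited limits (black), and the value after subtraction of the running median over transcript length (open diamonds). The grey band spans 1.5-fold either way and the dashed line is the median of all genes tested. HSPE1 at -0.66 and CLPX at 0.59 lie at the ends, and the diamonds of all 10 genes lie inside the band, between -0.23 and 0.40.

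The chaperonin genes were the most abundant group, with 54.9% of the summed FPKM of the 10 genes in WT and 48.2% in PERK-KO cells. HSPD1 is on chromosome 2 between 198351308 and 198364998, minus strand (GRCh37), with 12 exons in its canonical transcript. Its FPKM was 369 (limits 353 to 384) in WT and 324 (309 to 338) in PERK-KO cells. The PERK-KO value was lower by a ratio of 0.878 (interval 0.825 to 0.933), and the limits did not overlap.

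HSPE1 is on the plus strand from 198364721 to 198368187, with 4 exons, and its row overlaps that of HSPD1 by 278 bases at their start ends. In RefSeq the starts of HSPD1 lie 105 and 539 bases from that of HSPE1, on the other strand. HSPE1 had an FPKM of 161.7 (152.3 to 171.1) in WT and 102.5 (95.5 to 109.6) in PERK-KO cells. The WT value was thus 1.58-fold that of PERK-KO cells (interval 1.44 to 1.73), and only 5.80% of all genes tested had a lower fold change. In the same samples the ratio of HSPD1 to HSPE1 was 2.28 (2.12 to 2.45) in WT and 3.16 (2.91 to 3.42) in PERK-KO cells, that is, 1.38 times as high in PERK-KO cells (1.24 to 1.54). HSPE1 has a much shorter transcript (557 bases) than HSPD1 (2245 bases), and fold changes moved with transcript length in these samples. After subtraction of the median of genes of similar length, the log2 fold changes were -0.14 for HSPD1 and -0.23 for HSPE1, so that the log2 change of their ratio was 0.09 instead of 0.47. Reads of both can also match copies elsewhere in the genome, as GENCODE lists 18 pseudogenes named for HSPD1 and 26 for HSPE1, against 0 or 1 for each of the other 8 genes, and the part of such reads in the values was not tested. The read-through transcript HSPE1-MOB4, which shares the start of HSPE1, had 0.075 FPKM in WT and 0.195 in PERK-KO cells.

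HSPA9, the matrix HSP70, was the most precisely measured gene, with an FPKM of 105.2 (102.6 to 107.7) in WT and 108.9 (106.1 to 111.7) in PERK-KO cells. These limits overlapped, and the ratio was 1.04 (0.9999 to 1.07), at percentile 51.0 of all genes tested. The gene is on chromosome 5 between 137890571 and 137911318, minus strand, with 17 exons. Its row also spans the small nucleolar RNA SNORD63, listed at 0 in WT and at 225 (0 to 544) in PERK-KO cells, a row whose limits leave it unresolved. HSPA5 (BiP), the HSP70 of the ER lumen, had 161 (158 to 164) FPKM in WT and 679 (672 to 685) in PERK-KO cells, with a log2 fold change of 2.07 compared with 0.05 for HSPA9.

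Among the matrix proteases, LONP1 and CLPX were higher and CLPP lower in PERK-KO cells. LONP1 degrades oxidised proteins and is known to act on the mitochondrial DNA packaging factor TFAM. On chromosome 19 between 5691845 and 5720463, minus strand, with 18 exons, it had an FPKM of 43.8 (41.7 to 46.0) in WT and 51.8 (49.2 to 54.4) in PERK-KO cells. The limits were apart, at a ratio of 1.18 (1.10 to 1.27). RPL36, a ribosomal protein gene on the other strand, ends 166 bases from the LONP1 row and had 4058 FPKM in WT and 2636 in PERK-KO cells. Its part in the LONP1 value was not tested.

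CLPP, the proteolytic barrel, is on chromosome 19 between 6361463 and 6368915, plus strand, with 6 exons. It had 134.1 (128.8 to 139.4) FPKM in WT and 122.2 (116.8 to 127.6) in PERK-KO cells, and thus a ratio of 0.911 (0.859 to 0.967) with limits narrowly apart. CLPX, which unfolds substrates and feeds them into CLPP, is on chromosome 15 between 65442784 and 65477563, minus strand, with 14 exons. It had 9.93 (8.97 to 10.9) FPKM in WT and 14.9 (13.6 to 16.2) in PERK-KO cells, and thus a ratio of 1.502 (1.32 to 1.71), and 10.1% of all genes tested were past the same limit. CLPP mRNA exceeded CLPX mRNA in both samples, by 13.5 times (12.2 to 15.0) in WT and 8.19 times (7.44 to 9.02) in PERK-KO cells. Of the 5 ratios between pairs of the 10 genes computed, this one differed most between the samples, with the PERK-KO ratio at 0.607 of the WT ratio (0.527 to 0.699). The log2 change of this ratio was -0.72, or -0.51 with length subtracted. CLPX was also the gene with the widest limits, equal to the counting error of 428 fragments in WT and 551 in PERK-KO cells, compared with 6819 and 6219 for HSPA9.

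The inner membrane proteases differed among themselves. YME1L1, the i-AAA protease, is on chromosome 10 between 27399040 and 27443349, minus strand, with 19 exons. Its FPKM was 62.1 (59.6 to 64.6) in WT and 79.9 (76.5 to 83.4) in PERK-KO cells, and thus a ratio of 1.29 (1.21 to 1.36) at percentile 78.8 of all genes tested. The m-AAA subunits had values on either side of 1. AFG3L2, on chromosome 18 between 12328943 and 12377275, minus strand with 17 exons, had 43.3 (41.6 to 45.0) and 39.5 (37.8 to 41.3), a ratio of 0.913 (0.861 to 0.968) with limits narrowly apart. SPG7, on chromosome 16 between 89574805 and 89624174, plus strand with 17 exons, had 18.8 (17.4 to 20.2) and 21.4 (19.9 to 22.9), a ratio of 1.14 (1.03 to 1.26) with limits that overlapped. AFG3L2 exceeded SPG7, its partner in the mixed m-AAA complex, by 2.30 times (2.12 to 2.50) in WT and 1.85 times (1.70 to 2.01) in PERK-KO cells. YME1L1 exceeded AFG3L2 by 1.43 times (1.36 to 1.52) and 2.02 times (1.90 to 2.15).

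HTRA2 had an FPKM of 18.2 (16.7 to 19.6) in WT and 18.3 (16.8 to 19.8) in PERK-KO cells, the smallest difference of the 10 genes. The ratio was 1.01 (0.896 to 1.13), an interval that includes 1 and comes from measurement error alone. It is on chromosome 2 between 74756532 and 74760683, plus strand, with 8 exons. Its row overlaps AUP1 by 443 bases and LOXL3 by 738 bases, both on the other strand, and these had 49.2 and 4.65 FPKM in WT and 50.8 and 3.89 in PERK-KO cells. Whether the reads were counted by strand is not given in the sources used here, so reads in the shared stretches may have been split between the genes.

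In these samples fold changes rose with transcript length across genes, which bears on the 10 genes because they range from 557 bases (HSPE1) to 4695 bases (CLPX) in their canonical transcripts. Genes of up to 1000 bases had a median log2 fold change of -0.38 (866 genes), those above 1000 and up to 2000 bases -0.17 (2343 genes), those above 3000 and up to 5000 bases 0.12 (3501 genes) and longer ones 0.25 (3224 genes). HSPE1 is in the shortest class, HTRA2 in the next, HSPD1 and CLPP between 2000 and 3000 bases, and the other 6 between 3000 and 5000 bases. After subtraction of the running median over genes of similar length, the log2 fold change of HSPE1 was -0.23 instead of -0.66, that of CLPX 0.40 instead of 0.59 and that of YME1L1 0.25 instead of 0.36. HSPA9 went from 0.05 to -0.09 and HTRA2 from 0.01 to 0.16. None of the 10 was then beyond 1.5-fold, and LONP1 (0.18), SPG7 (0.13), HSPD1 (-0.14), CLPP (-0.11) and AFG3L2 (-0.20) kept their direction. The value subtracted for HSPE1, -0.42, is the median of the shortest genes.

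**Figure D3:**
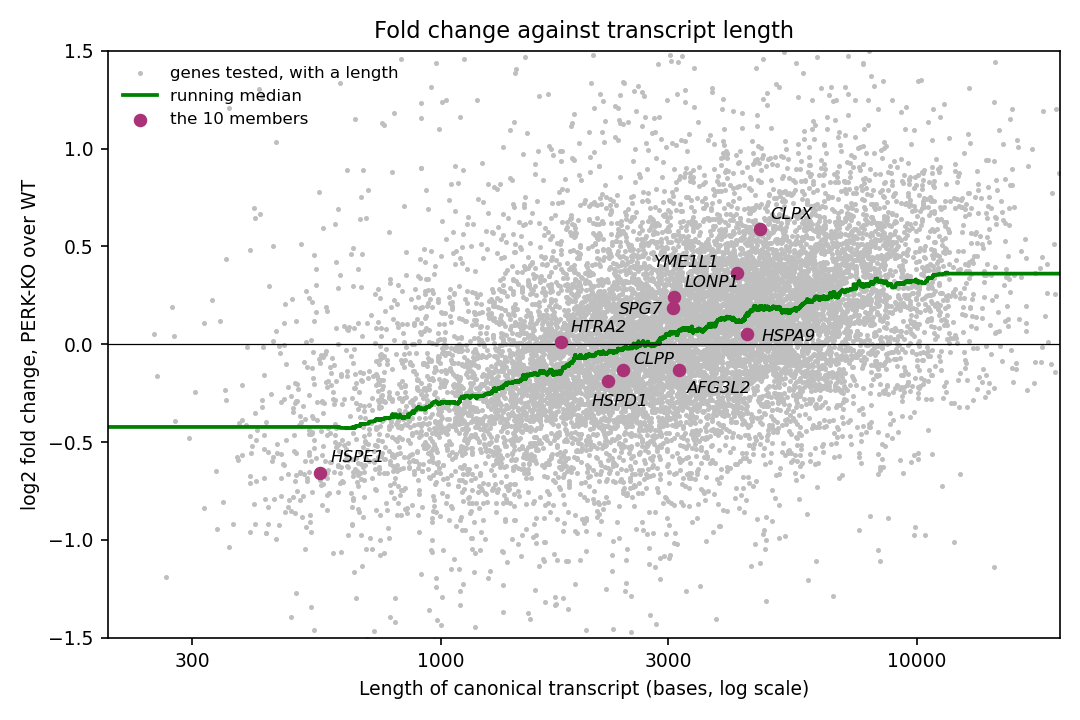
Log2 fold change (PERK-KO over WT) against the length of the canonical transcript (log axis) for genes tested (grey), with the running median (green) and the 10 members (purple). The axes leave out 117 genes beyond 1.5 on the log2 scale and 22 shorter or longer than the range drawn. The running median rises with length, with HSPE1 below it at the short end and CLPX above it at 4695 bases.

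Other genes of mitochondrial protein quality control were mixed in the same way. Of 9 co-chaperones and disaggregases of the matrix, 8 had at least 1 FPKM, and their median log2 fold change was 0.02, or 0.15 with length subtracted. CLPB, a disaggregase, was more than 1.5-fold higher, with 9.96 (9.09 to 10.8) FPKM in WT and 17.5 (16.2 to 18.8) in PERK-KO cells. Its transcript is long (9963 bases), and once the running median over length was taken off, its log2 fold change was 0.49 instead of 0.82, no longer past 1.5-fold. DNLZ, which keeps HSPA9 soluble, was more than 1.5-fold lower, with 119.9 (111.7 to 128.1) and 67.8 (61.8 to 73.8). Length subtraction gave -0.88, but it used a canonical transcript of 3096 bases, longer than the DNLZ row from 139256352 to 139258263. Whether DNLZ stays past 1.5-fold at the length of the transcript measured was not tested. The limits of 3 were apart and higher, those of CLPB, DNAJA3 and GRPEL2, and the limits of DNLZ and DNAJC19 were apart and lower. Among all genes tested these shares were 26.1% and 18.7%, and those more than 1.5-fold higher and lower were 10.1% and 7.54%. TRAP1, the mitochondrial HSP90, had 176.8 (169.3 to 184.3) and 173.2 (165.0 to 181.4), with limits that overlapped. GRPEL1, the nucleotide exchange factor of HSPA9, also had overlapping limits, at 33.2 (30.9 to 35.5) and 34.8 (32.3 to 37.3).

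Among 7 presequence and processing peptidases the median was 0.02 (-0.03 with length subtracted). None was more than 1.5-fold higher, where 10.1% of all genes tested were. Against 7.54% of all genes tested, 1 of the 7 was more than 1.5-fold lower. This was IMMP2L, an inner membrane peptidase subunit, with 7.63 (6.39 to 8.88) FPKM in WT and 4.13 (3.14 to 5.13) in PERK-KO cells, and it stayed past the limit with length subtracted (-0.84). The processing peptidase subunits differed from each other, as PMPCA was lower at 138.1 (134.3 to 141.9) and 105.7 (102.1 to 109.3), while the limits of PMPCB overlapped at 25.8 (24.2 to 27.4) and 27.7 (25.9 to 29.4). PITRM1, which degrades cleaved presequences, had the highest fold change of the list, a ratio of 1.17 (1.08 to 1.27). Limits were apart and higher for 1 of the 7 (PITRM1) and apart and lower for 2 (PMPCA and IMMP2L). Of all genes tested, 26.1% were apart and higher and 18.7% apart and lower.

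The 8 inner membrane partners of these proteases had a median of -0.13, with none beyond 1.5-fold. Limits were apart and lower for 4 of them, PARL, PHB, PHB2 and STOML2, at ratios from 0.813 to 0.898, against 18.7% of all genes tested. With length subtracted, PARL was at -0.12, but PHB2 (0.04) and STOML2 (0.05) were above 0. OMA1 was at 0.49. Only 5 of the 8 genes had a transcript length, and their median was 0.04 with length subtracted, above 0. It is thus not over the same genes as the median of -0.13. OMA1, a stress-activated protease, was apart and higher, with 7.51 (6.57 to 8.46) and 9.81 (8.65 to 11.0). PHB and PHB2 form the prohibitin ring that binds the m-AAA protease.

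Of 8 stress factors linked to the mitochondrial unfolded protein response, none was beyond 1.5-fold as deposited, and the median was 0.14, or 0.27 with length subtracted over the 7 genes with a length. ATF4 was highest, with 342 (326 to 358) FPKM in WT and 506 (483 to 528) in PERK-KO cells, and thus a ratio of 1.48 (1.39 to 1.58). With length subtracted its log2 fold change was 0.76 instead of 0.56, which is past 1.5-fold. CEBPB at a ratio of 1.26 and HSF1, the heat shock factor, at 1.17 were also higher with limits apart. With ATF4 that made 3 of the 8, against 26.1% of all genes tested. The limits overlapped for DDIT3 (CHOP), with 58.2 (53.7 to 62.8) and 66.2 (61.1 to 71.4), and for ATF5, with 36.4 (34.0 to 38.8) and 38.9 (36.2 to 41.5). They also overlapped for SSBP1, DELE1 and EIF2AK1, at ratios from 0.907 to 1.06.

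Known substrates and partners of the proteases were mixed. Of 9 genes, limits were apart and higher for TIMM17A, ALAS1, XIAP and OPA1, and apart and lower for DIABLO, SMDT1, PRELID1 and PINK1, with a median of 0.04 and none beyond 1.5-fold. The shares of all genes tested were 26.1% apart and higher and 18.7% apart and lower. The median was -0.05 with length subtracted over the 8 genes with a length, where OPA1 (-0.04) and XIAP (-0.06) were below 0. TIMM17A, an import channel subunit degraded by YME1L1, was highest, with 32.7 (30.6 to 34.9) and 48.2 (45.4 to 50.9) FPKM, and with length subtracted its log2 fold change was 0.70 instead of 0.56, past 1.5-fold. DIABLO, released from the intermembrane space like HTRA2, was lowest, with 30.3 (28.3 to 32.3) and 24.7 (22.9 to 26.5). TFAM, a LONP1 substrate, had overlapping limits at 26.5 (25.1 to 28.0) and 27.3 (25.8 to 28.8).

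**Figure D4:**
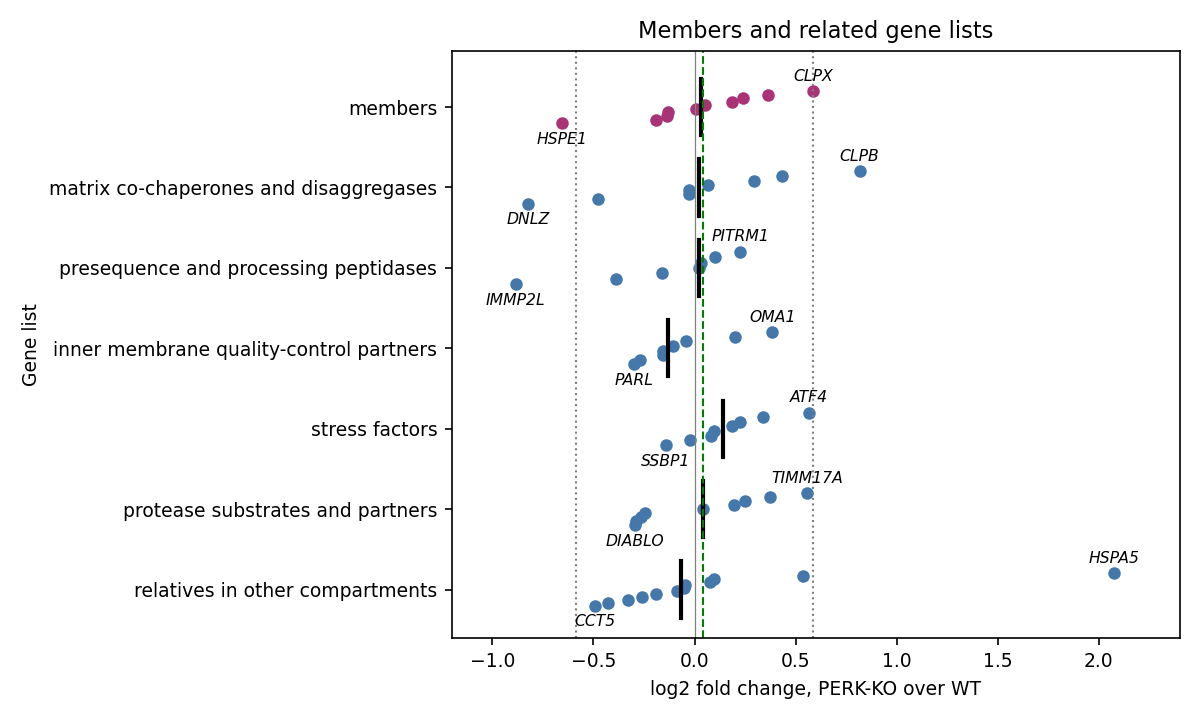
Log2 fold change (PERK-KO over WT) of the 10 genes (purple) and of the genes of each related list (blue) with at least 1 FPKM in at least one sample, with the lowest and highest gene named. Black bars mark each list's median, the dashed line the median of all genes tested, and the dotted lines 1.5-fold either way. The medians lie between -0.13 and 0.14, and HSPA5 stands apart at 2.07.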

How the data were processed

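The authors isolated poly(A) mRNA from HEK293 cells, mapped the reads to GRCh37/hg19 with TopHat2 2.0.13 and computed FPKM with Cufflinks 2.2.1, per the submitters' processing notes. The deposited tables hold FPKM with lower and upper confidence limits per gene, without read counts. The gene annotation is not given in the sources used here.

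Fold changes are PERK-KO over WT without a pseudocount, over rows reaching 1 FPKM in either sample (14594, of which 155 were listed at 0 in one sample). The fold limit was 1.5. The limits were taken as 95% limits and combined on the log scale for ratios. No p-values were computed, since each genotype has 1 sample. Transcript lengths, exons and strands came from canonical transcripts of GENCODE 44 on GRCh37, matched by symbol and position for 85.2% of rows tested and all 10 members, and the file coordinates are given from base 1. Promoter sequences came from RefSeq (GRCh38.p14). Named genes were the members, the targeted gene, and of each list the genes past 1.5-fold, the highest and the lowest, and any gene of a list of up to 8. Other genes of the longer lists, such as TRAP1, GRPEL1 and TFAM, and RPL36 were named after their values were seen. Depth was read from genes with a single start site and 20 to 200 fragments, where a fragment number within 0.02 of a whole number in both samples was called whole (129 of 3306 genes). Members and lists were chosen with earlier results of these data known. Calculations were tested on simulated data. Python 3.11.15, numpy 2.4.6, pandas 2.3.3 and matplotlib 3.10.9 were used.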

Additional observations from a re-analysis of the deposited data

How the results depend on the processing

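No paired analysis was possible because each genotype has 1 sample, and for the same reason no replicate was left out. No member had more than 1 row, so summing rows of the same name was not run. The number of members more than 1.5-fold higher, 1 (CLPX), was 0 with a pseudocount of 1 or 0.1, with rescaling to a median log2 fold change of 0, with rescaling by the 75th percentile, with the running median over transcript length subtracted and at a limit of 2-fold, and 2 at a limit of 1.2-fold. CLPX lies at the limit, so that shifts of -0.04 and -0.03 on the log2 scale from the 2 rescalings moved it below. The number more than 1.5-fold lower, 1 (HSPE1), was 0 with the running median subtracted and at a limit of 2-fold. With limits 1.5 times as wide, 2 members instead of 4 were lower with limits apart, as CLPP and AFG3L2 then overlapped. The median of the members was -0.0102 after rescaling to a median of 0, and the share of all genes more than 1.5-fold higher was 6.47% with a pseudocount of 1. The 3 members higher with limits apart stayed 3 under both rescalings and with wider limits. No member with limits apart changed sign under any alternative. The median of the relatives in other compartments was -0.11 after rescaling. Subtracting the running median over length from the list medians was chosen after seeing the data, and it took CLPB below 1.5-fold and ATF4 and TIMM17A above. It also moved the median of the inner membrane partners from below to above 0. The medians of the processing peptidases and of the substrates and partners moved from above to below 0. Counting error limits CLPX and HTRA2 most, the members with the widest limits.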

Other observations

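Relatives of the members that work outside mitochondria did not share 1 direction. The cytosolic chaperonin, the counterpart of HSPD1, is a ring of different subunits, and none of its 8 genes was more than 1.5-fold different. Limits were apart and lower in PERK-KO cells for 4 of them (CCT4, CCT5, CCT7 and CCT8), and overlapped for the other 4, with a median log2 fold change of -0.14. Of all genes tested, 18.7% had limits apart and lower. CCT5 was lowest, with an FPKM of 174.1 (170.8 to 177.4) in WT and 124.0 (121.0 to 127.0) in PERK-KO cells. HSPA8, the constitutive cytosolic HSP70, had 332 (318 to 346) and 355 (340 to 370), with limits that overlapped.

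LONP2, the Lon protease of peroxisomes, was higher with limits apart, at 10.4 (9.67 to 11.1) FPKM in WT and 15.0 (14.1 to 16.0) in PERK-KO cells, and thus a ratio of 1.45. Its transcript is long (8195 bases), and once the running median over length was taken off, its log2 fold change was 0.21, beside 0.18 for LONP1. HTRA1, a secreted relative of HTRA2, was lower, with 38.3 (36.3 to 40.3) and 28.5 (26.7 to 30.4). Over the 12 relatives the median log2 fold change was -0.07, or -0.05 with length subtracted. These genes were named after their values were seen, except HSPA5 and CCT5.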
